A study of Mus musculus with 8 samples.

Results

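The cristae organizing genes are 7 genes whose proteins shape the folds of the inner mitochondrial membrane: Apool, Apoo, Immt, Chchd3, Chchd6, Samm50 and Opa1. Apool was chosen by its p-value, one of the smallest in the comparison of voglibose with water, and the other 6 were added as its partners at the cristae junction. A gene was read from the probe set that carries its symbol, and of several probe sets the one with the highest mean would have been used. Of the 7 genes, 6 had a probe set, 1 each, among 22206 probe sets and 19505 named genes on the array, and Apoo was not analysed here. The tissue was ileum from male mice of the obese and diabetic KKAy strain, aged 14 weeks and weighing 30 g at the outset. Fat gave 45% of the energy in the diet of all mice. After 4 weeks on it, 4 mice received voglibose, an inhibitor of the brush border alpha-glucosidases, by gavage at 1 mg/kg and 4 received the same volume of water, each once a day for 8 weeks. The comparison asks whether the partners of Apool differed between the groups in the way Apool did.

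Cristae are joined to the rest of the inner membrane through narrow necks, the cristae junctions. These necks are held open by the mitochondrial contact site and cristae organizing system, MICOS, which is built from a MIC60 branch (Immt, Chchd3 and Chchd6) and a MIC10 branch (Micos10, Micos13, Apoo and Apool). MICOS reaches the outer membrane through Samm50, the core of the machine that inserts beta-barrel proteins there, and Opa1 fuses inner membranes and narrows the cristae. In the ileum, absorptive enterocytes are rich in mitochondria, whose ATP drives the sodium gradient used for nutrient uptake.

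The promoters of 4 members are shown because they set Apool beside the 3 subunits of the MIC60 branch. Each is the RefSeq window of GRCm38.p6 from 250 bases before to 50 bases after the gene's start, on the gene's own strand, and all 7 genes matched an entry. Capitals mark matches on either strand to CGCNTGCGC (NRF1), CCGGAAG (GABP), ACTACANNT and ACANNTCCC (the left and right parts of the ZNF143 motif, which overlap), TNAAGGTCA (estrogen-related receptors), AANATGGCG (YY1) and GGGCGG (the GC box). The motifs were chosen after the promoters had been read.
Apool, chrX:112311102-112311401, plus strand: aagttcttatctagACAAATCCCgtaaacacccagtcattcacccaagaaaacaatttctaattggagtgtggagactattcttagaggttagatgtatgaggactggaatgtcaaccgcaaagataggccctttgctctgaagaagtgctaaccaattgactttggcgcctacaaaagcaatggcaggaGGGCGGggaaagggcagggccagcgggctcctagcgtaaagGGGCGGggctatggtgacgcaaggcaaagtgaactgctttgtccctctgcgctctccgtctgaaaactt
Immt, chr6:71831070-71831369, plus strand: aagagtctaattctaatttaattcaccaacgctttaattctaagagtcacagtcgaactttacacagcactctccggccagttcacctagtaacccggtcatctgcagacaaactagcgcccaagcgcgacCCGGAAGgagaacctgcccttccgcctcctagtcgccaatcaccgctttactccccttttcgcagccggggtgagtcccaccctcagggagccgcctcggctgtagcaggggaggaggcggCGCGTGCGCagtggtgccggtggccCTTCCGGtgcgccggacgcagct
Chchd3, chr6:33060211-33060510, minus strand: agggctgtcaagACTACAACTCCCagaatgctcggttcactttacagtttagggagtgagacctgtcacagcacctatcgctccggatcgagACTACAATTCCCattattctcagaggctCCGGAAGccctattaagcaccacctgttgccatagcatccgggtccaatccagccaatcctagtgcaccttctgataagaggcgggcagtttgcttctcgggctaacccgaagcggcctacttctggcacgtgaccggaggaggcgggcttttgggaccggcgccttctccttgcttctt
Chchd6, chr6:89595603-89595902, minus strand: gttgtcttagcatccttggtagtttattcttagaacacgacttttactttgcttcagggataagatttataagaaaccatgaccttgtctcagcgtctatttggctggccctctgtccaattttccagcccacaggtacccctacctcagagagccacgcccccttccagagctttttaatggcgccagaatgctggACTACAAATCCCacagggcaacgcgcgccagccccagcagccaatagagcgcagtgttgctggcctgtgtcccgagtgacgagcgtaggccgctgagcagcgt

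The Apool window held 2 GC boxes and, at bases 15 to 23, the right part of the ZNF143 motif. A GC box stands in 35.7% of 32851 RefSeq promoter windows. The Immt window held an NRF1 match at bases 253 to 261 and 2 GABP matches. The NRF1 match and the GABP match at bases 278 to 284 lay after the gene's start. NRF1 and GABP are regulators of nuclear genes for mitochondrial proteins, and their letters stand in 6.25% and 8.86% of all windows. Chchd3 and Chchd6, which encode related proteins, both held the 2 parts of the ZNF143 motif joined in 1 run, found so in 1.81% of windows, where the left part stands in 4.16% and the right part in 6.28%. They lay in Chchd3 at bases 13 to 24 and 93 to 104, and in Chchd6 at bases 198 to 209. Chchd3 also held 1 GABP match. In the windows not shown, Opa1 (chromosome 16) held 2 overlapping NRF1 matches, 1 on each strand of a single stretch from base 192 to 201. Like Apool, it also held GC boxes and the right part of the ZNF143 motif, at bases 168 to 176. Samm50 (chromosome 15) held a GC box and a YY1 match at bases 260 to 268, after its start (2.38% of windows). The windows of Apoo held no match to any of the motifs. The ERR letters, in 1.28% of windows, were in none of the members' windows. Such matches are a description of letters, not of binding.

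Median log2 signals were 5.89 to 5.94, and any pair of arrays correlated at 0.982 to 0.994. All 8 enterocyte markers were measured, at log2 signals from 12.39 to 19.08. The log2 of their summed signal ran from 20.41 to 20.60 in voglibose mice and from 20.47 to 20.57 in water mice. The brightest genes weigh most in that sum. By the mean of all 8, each relative to its own mean over the mice, voglibose mice ran from -0.002 to 0.22. Water mice ran from -0.34 (mouse 2) to 0.093. Lct was 12.39 in water mouse 2 and 14.83 to 15.85 in the other mice. The distal ileal markers differed widely between mice of 1 group. The bile acid binding protein gene Fabp6 had 8.14, 3.54, 10.78 and 11.68 in voglibose mice and 8.51, 17.50, 14.11 and 4.01 in water mice 1 to 4, so voglibose mouse 2 and water mouse 4 were lowest. The 4 pancreatic enzyme genes were high in voglibose mouse 2 alone, with Cpa1 at 12.01 there, 5.01 to 5.37 in the other voglibose mice and 4.72 to 5.25 in water mice. Voglibose mouse 2 and water mouse 4 stand apart, and results without both are given below for Apool, its partners and some of the lists. At the other end, water mouse 2 had the highest mean of the distal ileal markers, each relative to its own mean over the mice (4.0). Its mean of the proximal markers was the lowest (-0.95). Water mouse 2 was left out only singly. In whole tissue, fewer cells of a type and less RNA per cell cannot be told apart.

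Apool, a MICOS subunit of the apolipoprotein O family that binds cardiolipin, had log2 signals of 8.10, 8.55, 8.43 and 8.74 in voglibose mice 1 to 4, against 9.23, 9.44, 9.32 and 9.58 in water mice 1 to 4. Every voglibose mouse lay below every water mouse, and the gap between the highest voglibose and the lowest water mouse was 0.49. The means were 8.46 ± 0.27 in voglibose mice and 9.39 ± 0.15 in water mice (SD, n = 4 each), a difference of -0.94, or 0.522-fold. Apool was ranked 2 of all probe sets by p and 64 by the size of its fall. Since it was named for that p, these values describe it and no test of them is given. With each mouse left out in turn the difference ran from -1.03 to -0.82. It was -0.91 without voglibose mouse 2 and water mouse 4 together.

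None of the 5 measured partners passed the test over all probe sets, and none had groups that did not overlap. Over the whole array 0 probe sets (0.0%) passed at an adjusted p of 0.05 with limma, and 0 by the same model with each probe set's own variance. By an unadjusted p under 0.05, 1671 (7.52%) were called, and of the partners 0. The groups did not overlap, with voglibose lower, in 2.53% of probe sets, and with voglibose higher in 1.82%. Of the partners, 3 had a lower and 2 a higher mean in voglibose mice, where 50.9% of all probe sets were lower. The median difference of the partners was -0.12, beside -0.005 over all probe sets. All 5 partners lay above the median signal, where 57.0% of probe sets were lower and the median difference was -0.0425. After a further quantile normalization the median of the partners was -0.040. Without water mouse 4, 1 partner was lower and the median was 0.036. Without voglibose mouse 2 and water mouse 4 together, 3 were lower and the median was -0.01. Immt was then at -0.01, Chchd3 at -0.22 and Samm50 at -0.04, with Chchd6 at 0.16 and Opa1 at 0.12.

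**Figure D1:**
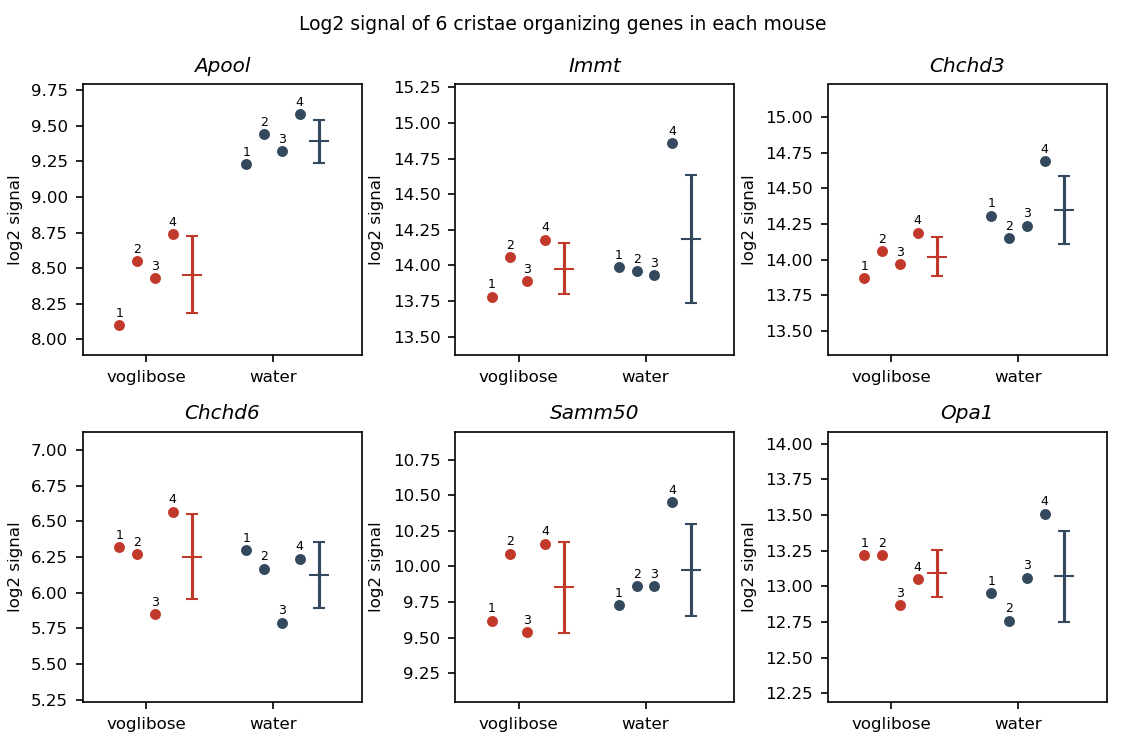
Log2 signal (vertical axes, each spanning the same range) of the 6 measured genes in voglibose and water mice. Points are mice with their numbers, and bars show the mean and SD of 4 mice. Apool alone has no overlap between the groups (highest voglibose mouse 8.74, lowest water mouse 9.23), and water mouse 4 is the highest water mouse for Apool, Immt, Chchd3, Samm50 and Opa1.

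Immt encodes MIC60, the scaffold that bends the membrane at the junction. Its signals were 13.78, 14.06, 13.89 and 14.18 in voglibose mice and 13.99, 13.96, 13.93 and 14.86 in water mice. Water mouse 4 lay 0.87 above the next water mouse, and the other 3 water mice fell within the span of the voglibose mice. The difference was -0.21 ± 0.22 (SE), with a 95% interval from -0.68 to 0.27 (limma, adjusted p = 0.857). Without water mouse 4 it was 0.018.

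Chchd3 encodes MIC19, which joins MIC60 to Samm50. It had 13.87, 14.06, 13.97 and 14.19 in voglibose mice and 14.31, 14.15, 14.24 and 14.69 in water mice. Only voglibose mouse 4 and water mouse 2 overlapped, by 0.04. The difference was -0.33 ± 0.16 (SE; 95% interval -0.67 to 0.021; adjusted p = 0.668), the largest among the partners. It kept its sign in every refit, from -0.39 without water mouse 2, where the unadjusted p was under 0.05, to -0.21 without water mouse 4.

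Chchd6 encodes MIC25, a relative of MIC19 in the same branch. Its signals were 6.32, 6.27, 5.85 and 6.57 in voglibose mice and 6.30, 6.17, 5.79 and 6.24 in water mice, with mouse 3 lowest in both groups and near complete overlap. The difference was 0.13 ± 0.18 (SE; 95% interval -0.28 to 0.53; adjusted p = 0.904). Leaving out mouse 3 of the water group gave 0.016, and mouse 3 of the voglibose group 0.26. The probe set lay near the median signal of the arrays, and whether background affected its difference was not tested.

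Samm50 had 9.62, 10.09, 9.54 and 10.16 in voglibose mice and 9.73, 9.86, 9.86 and 10.45 in water mice. The groups overlapped, with voglibose mice 2 and 4 above 3 of the 4 water mice. The difference was -0.12 ± 0.21 (SE; 95% interval -0.57 to 0.33; adjusted p = 0.922), and 0.036 without water mouse 4.

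Opa1 had 13.22, 13.22, 12.87 and 13.05 in voglibose mice and 12.95, 12.76, 13.06 and 13.51 in water mice, whose span enclosed that of the voglibose mice. The difference was 0.02 ± 0.18 (SE; 95% interval -0.37 to 0.41; adjusted p = 0.989). It changed sign when single mice were left out, from -0.083 without water mouse 2 to 0.17 without water mouse 4. The 95% intervals of Immt, Chchd3, Chchd6, Samm50 and Opa1 all left out a fall as large as that of Apool, which is itself a selected value, so the difference between Apool and each partner was not tested.

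The remaining subunits of MICOS and of the bridge to the outer membrane were read from a list of 7 genes, all measured. Of these 6 were lower and 1 higher in voglibose mice, with a median difference of -0.30. At an unadjusted p under 0.05, 2 were lower and 0 higher, where 4.44% of all probe sets were lower and 3.08% higher by that rule, and none passed over all probe sets. Mtx2, a metaxin that sits with Samm50 in the outer membrane, had 10.82, 11.16, 11.41 and 11.37 in voglibose mice and 11.96, 11.58, 11.92 and 12.44 in water mice, with no overlap. Its difference was -0.79 ± 0.20 (SE; adjusted p = 0.652), and -0.63 without water mouse 4. Its partner Mtx1 differed by 0.25 ± 0.18 (adjusted p = 0.781).

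Micos10, the small subunit whose oligomers curve the membrane at the junction, had 17.06, 17.14, 17.23 and 17.34 in voglibose mice and 17.48, 17.48, 17.46 and 17.55 in water mice. All voglibose mice lay below all water mice, near the top of the scale, which runs to 19.55. The difference was -0.30 ± 0.13 (SE; adjusted p = 0.659). Micos13, which links the MIC10 and MIC60 branches, had 10.73, 10.97, 10.87 and 11.14 in voglibose mice and 11.07, 11.19, 11.30 and 11.45 in water mice, and overlapped in voglibose mouse 4 and water mouse 1. It differed by -0.33 ± 0.15 (SE; adjusted p = 0.659). Dnajc11, Armc1 and Mtx3 differed by -0.32, -0.23 and -0.05. The count of 2 at an unadjusted p under 0.05 was 4 without voglibose mouse 4 and 1 without water mouse 2, 3 or 4 or voglibose mouse 1, 2 or 3. It was also 1 without voglibose mouse 2 and water mouse 4 together.

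**Figure D2:**
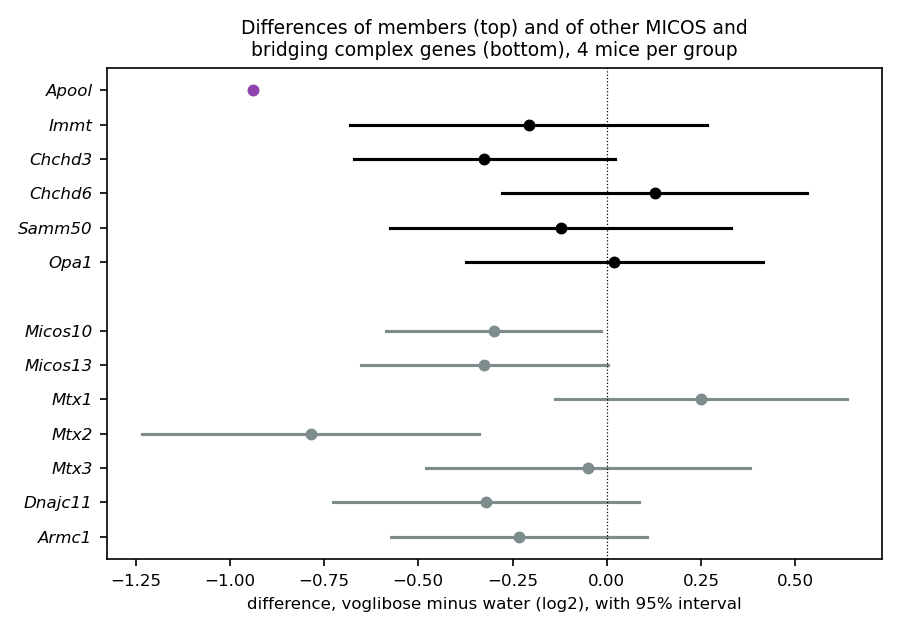
Difference between voglibose and water mice on the log2 scale (horizontal axis) with its 95% interval, 4 mice per group. The members stand at the top, with Apool at -0.94 drawn without an interval because it was named for this comparison, and 7 other genes of the complex stand below. The intervals of Immt, Chchd3, Chchd6, Samm50 and Opa1 include 0, and those of Mtx2 and Micos10 lie below it.

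How the members varied among mice of the same group does not use the difference by which Apool was named. Deviations from the group means were correlated over the 8 mice, with exact 2-sided permutation within each group (576 arrangements). Apool ran with Samm50 (r = 0.793, permutation p = 0.0208; rho = 0.872, permutation p = 0.0278), with Immt (r = 0.677, permutation p = 0.00694; rho = 0.70, permutation p = 0.111) and with Chchd3 (r = 0.692, permutation p = 0.0382; rho = 0.60, permutation p = 0.212). Voglibose mouse 1 was lowest in its group for Apool, Immt and Chchd3, and mouse 4 was highest in both groups for Apool, Immt, Chchd3 and Samm50. Adjusted over the 5 pairs with Apool, the Pearson values gave permutation p = 0.052 for Samm50, 0.0347 for Immt and 0.0637 for Chchd3. Without voglibose mice 1 and 4, the farthest from the median of Apool, r was 0.876, 0.808 and 0.645. With Chchd6 and Opa1, Apool had r = 0.28 (permutation p = 0.592) and r = 0.145 (permutation p = 0.688). Without the same 2 mice these were 0.326 and 0.653, and without water mouse 4 that with Opa1 was -0.35, so the value for Opa1 rested on single mice.

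Over all 15 pairs of measured members, the highest r was that of Immt with Chchd3 (0.961, permutation p = 0.00521; rho = 0.90, permutation p = 0.0243), at an adjusted permutation p of 0.052 over the 15. It was 0.797 without voglibose mouse 4 and water mouse 4, the farthest from the median of Immt. Immt and Opa1 had r = 0.744 (permutation p = 0.142; rho = 0.103, permutation p = 0.854), which fell to 0.0508 without the same mice and so rested on them. Adjusted over the 15 pairs no pair passed. Many other probe sets ran more closely with Apool than its partners did. By r with Apool, Samm50 stood at rank 409, Chchd3 at 1011 and Immt at 1127. These ranks are among 18585 probe sets with a gene name, predicted models left out.

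**Figure D3:**
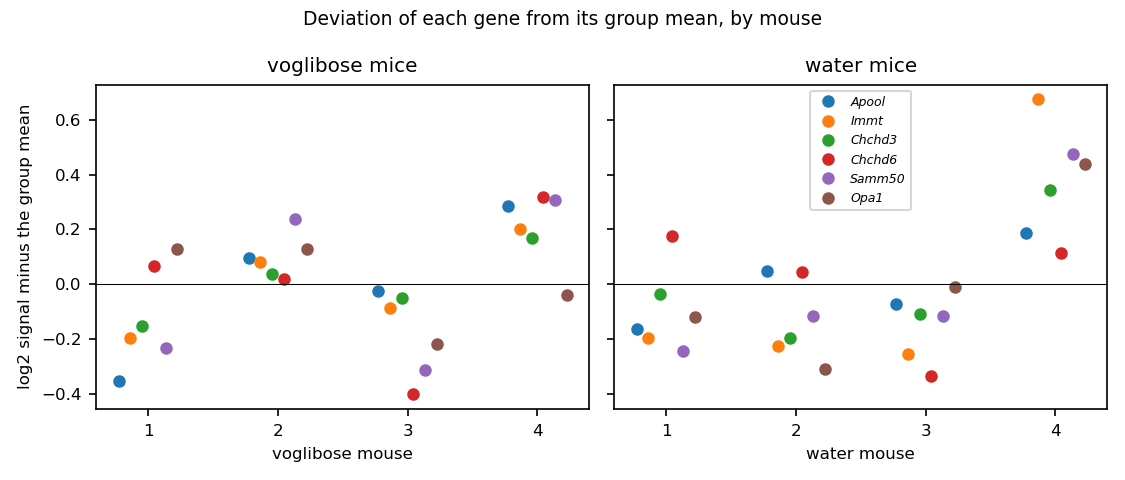
Log2 signal of each gene minus the mean of its group (vertical axis) for the 4 voglibose mice (left) and the 4 water mice (right). Each point is 1 gene in 1 mouse. Apool, Immt, Chchd3 and Samm50 are above 0 in mouse 4 of both groups, while Chchd6 is lowest in mouse 3 of both.

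The 5 genes most like Apool by the same measure, over 8 mice, were Surf1 (r = 0.982), an assembly factor of cytochrome c oxidase, Dynlt1c (0.981), a dynein light chain, the thioredoxin-like Txnl1 (0.959), the mitochondrial tRNA methyltransferase subunit Trmt10c (0.95) and Tceanc2 (0.948). Surf1 had 9.44, 9.96, 9.86 and 10.33 in voglibose mice and 10.01, 10.15, 10.07 and 10.46 in water mice, so its groups overlapped although it followed Apool from mouse to mouse. Its difference was -0.28 ± 0.20 (SE; adjusted p = 0.785). Dynlt1c and Trmt10c had groups that did not overlap, at -0.61 ± 0.18 and -0.56 ± 0.18 (SE; adjusted p = 0.652 each). Of all probe sets, 2.53% had no overlap with voglibose lower. The 5 were picked as the highest r of 18585 probe sets, so their r is high in part by selection.

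The nearest genes to Apool on the X chromosome with a probe set had differences closer to 0. Since Apool was named for its p, most genes of the array would lie closer to 0 than Apool. Satl1, 2010106E10Rik and Zfp711, at higher coordinates, differed by 0.14, -0.10 and 0.07, and 4933403O08Rik, Tex16 and Hdx, at lower coordinates, by -0.20, 0.18 and 0.25. All 6 had overlapping groups, and adjusted p ran from 0.83 to 0.949. Of these, 4933403O08Rik, Tex16, Hdx and Satl1 were dim, with group means below 4.6. The 6 neighbours of Apoo differed by -0.32 (Maged1) to 0.09 (Gspt2), the others being Eif2s3x, Zfx, AU015836 and Zxdb, and all 6 overlapped. Gspt2 and AU015836 were dim as well, with group means below 4.6.

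Around the members, 8 lists of genes of mitochondrial membranes and import held 94 genes, of which 93 were measured, 81 of them above the median signal. In voglibose mice 67 were lower, 23 higher and 3 equal (72.0% lower), where 50.9% of all probe sets and 57.0% of those above the median signal were lower. At an unadjusted p under 0.05, 22 were lower (23.7%) and 0 higher. In 16 there was no overlap with voglibose lower (17.2%, beside 2.53% of all probe sets). By the same rule of p, 7.08% of all probe sets above the median signal were lower. None of the 93 passed over all probe sets. The lists were chosen with earlier results of these data known, so these shares describe them and are no test. Left out singly, water mouse 4 and voglibose mouse 1 took the count of 22 to 14 and 13, and it was 10 without voglibose mouse 2 and water mouse 4 together. After a further quantile normalization 64 were lower and 29 higher, with 18 lower and 1 higher at an unadjusted p under 0.05, and the share of lower among all such probe sets was 50.5% in place of 59.1%.

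The membrane part of the ATP synthase joins the enzyme into the rows that line cristae edges. All 6 genes of this list, 5 of the membrane subunits and the inhibitor, were lower in voglibose mice (median -0.56). All 6 were so at an unadjusted p under 0.05 (4.44% of all probe sets) and without overlap between the groups (2.53% of all probe sets). The list leaves out other membrane subunits. It was chosen with earlier results of these data known, so these counts describe it and are no test. Atp5l, subunit g, had 12.10, 12.58, 12.84 and 12.80 in voglibose mice and 13.15, 13.20, 13.16 and 13.62 in water mice, a difference of -0.70 ± 0.19 (SE; adjusted p = 0.652). Atp5md, a small membrane subunit, had 15.82, 16.54, 16.40 and 16.32 in voglibose mice and 16.83, 16.80, 16.96 and 17.05 in water mice, a difference of -0.64 ± 0.17 (SE; adjusted p = 0.652). Voglibose mouse 1 was the lowest and water mouse 4 the highest for both genes. Atp5k, subunit e, and Atp5j2, subunit f, differed by -0.63 ± 0.21 and -0.49 ± 0.16 (adjusted p = 0.652 each). Atp5mpl and the inhibitor Atpif1, which stops the enzyme from running backwards, differed by -0.41 ± 0.15 and -0.42 ± 0.15 (adjusted p = 0.656 and 0.658). The count at an unadjusted p under 0.05 was 4 without voglibose mouse 1.

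Proteins with paired CX9C motifs, the class to which MIC19 and MIC25 belong, and the factors that import them were lower in 11 of 13. The median was -0.25, and 3 were lower at an unadjusted p under 0.05 (4.44% of all probe sets). Chchd1, a protein of the mitochondrial ribosome, had 7.01, 7.88, 8.20 and 7.99 in voglibose mice and 8.58, 8.77, 8.57 and 8.55 in water mice, a difference of -0.85 ± 0.23 (SE; adjusted p = 0.652) with no overlap. Chchd5 and the cytochrome c oxidase assembly factor Cmc1 differed by -0.44 ± 0.15 and -0.46 ± 0.19 (adjusted p = 0.652 and 0.658). Chchd4, the receptor that folds these proteins in the intermembrane space, differed by -0.25 ± 0.20 and Chchd10 by -0.03 ± 0.28 (adjusted p = 0.814 and 0.991). Without voglibose mouse 2 and water mouse 4 together the count of 3 was 1.

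Subunits of the import channels of the outer membrane (TOM) and inner membrane (TIM) were lower in 19 of 22. The median was -0.31, and 8 were lower at an unadjusted p under 0.05. By that rule 4.44% of all probe sets and 7.08% of those above the median signal were lower. The small chaperones of the intermembrane space Timm8b and Timm8a1 differed by -0.62 ± 0.16 and -0.69 ± 0.20, and Tomm7, a small stabilizer of the TOM complex, by -0.66 ± 0.21 (SE; adjusted p = 0.652 each). Timm8b had 8.18, 8.35, 8.81 and 8.62 in voglibose mice and 9.06, 9.01, 9.10 and 9.26 in water mice, with no overlap. The channel protein Tomm40 and the receptor Tomm20 differed by -0.04 each (SE 0.16 and 0.17). The count of 8 was 5 without water mouse 4, voglibose mouse 1 or voglibose mouse 2, and 3 without voglibose mouse 2 and water mouse 4 together.

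Of 8 genes of Opa1 processing and inner membrane scaffolds, 6 were lower and 2 higher (median -0.18). Yme1l1, a protease that cleaves Opa1, had 13.53, 13.91, 14.26 and 14.23 in voglibose mice and 14.45, 14.47, 14.22 and 14.38 in water mice, a difference of -0.40 ± 0.18 (SE; adjusted p = 0.659). The other protease, Oma1, differed by -0.09 ± 0.14, and the scaffold genes Stoml2, Phb and Phb2 by -0.42 ± 0.21, -0.31 ± 0.16 and 0.30 ± 0.15 (adjusted p = 0.91, 0.686, 0.686 and 0.673). Fusion and fission genes held 6 lower, 5 higher and 2 equal of 13 (median 0.0, and -0.024 after a further quantile normalization), with the outer membrane fusion GTPases Mfn1 and Mfn2 at 0.26 ± 0.23 and -0.06 ± 0.17, the fission GTPase Dnm1l at -0.13 ± 0.14, its receptor Mff at -0.38 ± 0.17 and Slc25a46 at -0.18 ± 0.16. Each of these lists had 1 gene lower (4.44% of all probe sets) and 0 higher (3.08%) at an unadjusted p under 0.05, Yme1l1 and Mff. Both counts were 0 without water mouse 1 or 4 or voglibose mouse 1 or 2, that of fusion and fission also without water mouse 2, and that of Opa1 processing was 2 without voglibose mouse 4. Both were also 0 after a further quantile normalization, with each probe set's own variance and with the mouse number as a replicate block. In the Opa1 list 1 gene was higher by this rule in the first 2 of these refits and without water mouse 3 or voglibose mouse 3. Without voglibose mouse 1 the difference was -0.25 for Yme1l1 and -0.22 for Stoml2, without water mouse 4 that of Mfn1 was 0.056, and without water mouse 3 that of Slc25a46 was -0.095.

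Cardiolipin is the inner membrane lipid that MICOS and Opa1 bind. Its synthesis genes held 4 lower and 4 higher of 8, with a median of -0.028 that became 0.024 once the arrays were quantile normalized again. The synthase Crls1 had 11.90, 11.91, 12.53 and 12.31 in voglibose mice and 12.86, 12.45, 12.65 and 12.57 in water mice, a difference of -0.47 ± 0.18 (SE; adjusted p = 0.658) with overlap in voglibose mouse 3. Crls1 was the 1 gene of this list at an unadjusted p under 0.05 (7.52% of all probe sets). None was without water mouse 1 or voglibose mouse 1 or 2. Ptpmt1 and Pgs1, earlier steps of the pathway, differed by -0.36 ± 0.21 and 0.18 ± 0.19, and Taz, tafazzin, which remodels the finished lipid, by 0.07 ± 0.15. Ptpmt1 was at -0.20 without voglibose mouse 1, and Pgs1 ran from 0.073 (water mouse 3 left out) to 0.31 (voglibose mouse 3 left out). Genes of mitochondrial content and biogenesis held 9 lower, 6 higher and 1 equal of 16 (median -0.098), and 0 had an unadjusted p under 0.05, with 0 or 1 lower and 0 or 1 higher when single mice were left out, and 1 lower after a further quantile normalization. Citrate synthase (Cs), the outer membrane channels Vdac1 and Vdac2 and the DNA packaging factor Tfam differed by 0.05 ± 0.14, 0.12 ± 0.14, 0.00 ± 0.13 and -0.23 ± 0.16 (SE). The mitochondrial RNA polymerase Polrmt, Vdac3 and the heart-type ADP carrier Slc25a4 had the smallest p of this list, at -0.36 ± 0.17, -0.32 ± 0.17 and -0.48 ± 0.28 (adjusted p = 0.663, 0.703 and 0.731). They were at -0.22 without voglibose mouse 4, -0.21 without voglibose mouse 1 and -0.23 without water mouse 2, in that order.

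**Figure D4:**
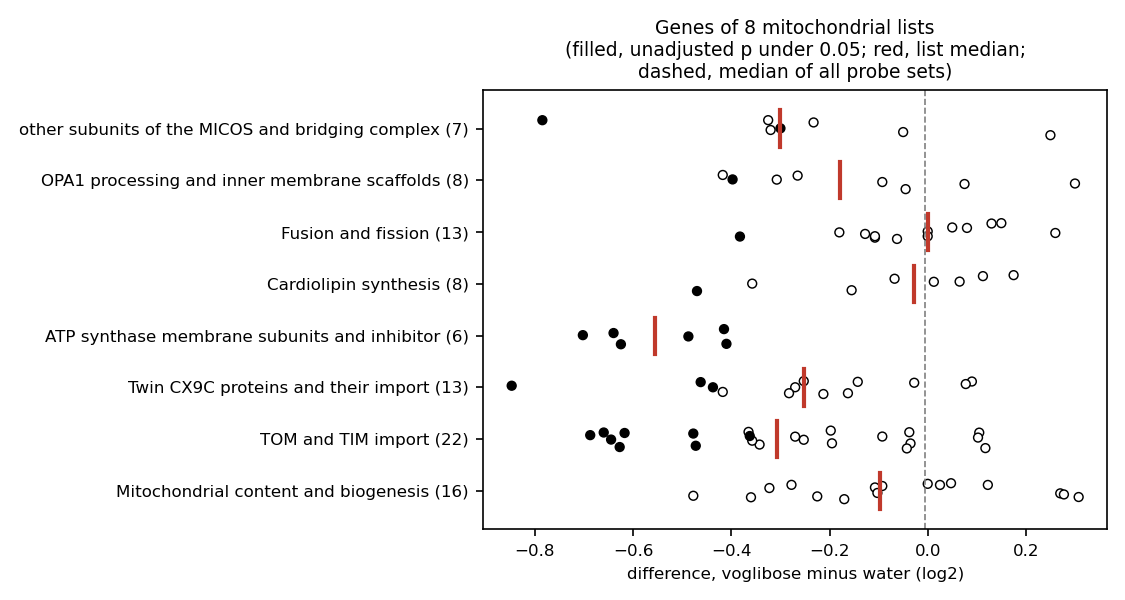
Difference between voglibose and water mice on the log2 scale (horizontal axis) for each measured gene of 8 lists, with the number of genes in brackets. Filled points have an unadjusted p under 0.05, red bars mark the list medians and the dashed line marks the median of all probe sets (-0.005). The medians of the ATP synthase, import and MICOS lists lie at -0.56, -0.31 and -0.30, and that of fusion and fission at 0.0.

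By mouse, the mean of the 93 genes, each taken relative to its own mean over all mice, was -0.24, -0.085, -0.086 and 0.020 in voglibose mice 1 to 4 and 0.017, -0.016, 0.12 and 0.27 in water mice 1 to 4. Voglibose mouse 1 was lowest and water mouse 4 highest, and voglibose mouse 4 lay above water mice 1 and 2. Water mouse 4 also had the lowest smooth muscle markers, with a mean of -1.46 over 7 genes, against -0.29 to 0.74 in voglibose mice and -0.32 to 1.51 in the other water mice, and voglibose mouse 1 had -0.29. Their part in these results was not tested.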

How the data were processed

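RNA from about 4 cm of ileum per mouse, 250 ng per array, was measured on 8 Affymetrix arrays. The authors deposited log2 signals per probe set to 2 decimals, made with RMA and the Transcriptome Analysis Console per the submitters' processing notes, with no versions. The log2 scale was read from the values (2.09 to 19.55). The sources used here name no settings, genome build or scan dates, and batches were not tested. Groups came from the labels, which describe 4 mice each. Symbols were matched through gene identifiers to RefSeq (19572 of 19572), and 5 list genes through older symbols.

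The 2 groups were set against each other in limma 3.58.1 under R 4.3.3 (lmFit, eBayes, 2-sided) over all 22206 probe sets without a filter, with Benjamini-Hochberg adjustment and a threshold of 0.05. The fit was tested on simulated data. Differences are voglibose minus water. The members and lists were chosen with earlier results of these data known. Named beside the members were the 3 genes with the smallest p per list, the 5 most like Apool and up to 3 neighbours a side, plus further genes for their role, chosen after their values were seen. Alternatives were another normalization, centring, trend and robust fitting, no moderation, a signal filter, a replicate block and leaving out mice. The number of arrays limits the precision (median SE 0.18).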

Additional observations from a re-analysis of the deposited data

Results flagged for a closer look

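In 124 groups of 4 values, from 47 genes and 15 marker lists, 9 held 1 mouse far from the others by Dixon's ratio of the gap to the group's range, and chance flags about 1 in 20 groups. Among the members, Immt was highest in water mouse 4, at 14.86 with the next at 13.99 (ratio 0.935). In water mice, Atp5l (13.62 and 13.20; ratio 0.894) and Trmt10c (9.22 and 8.92; 0.882) were also highest in mouse 4, and Chchd1 (8.77 and 8.58; 0.864) in mouse 2. In voglibose mice, Timm8a1 was lowest in mouse 1 (8.96 and 9.61; 0.867) and Polrmt in mouse 4 (4.86 and 5.39; 0.869). Among marker lists, the mean of the pancreas markers was highest in voglibose mouse 2 (4.42 and -0.46; 0.972), that of T cells lowest in water mouse 2 (-1.35 and 0.25; 0.867) and that of adipocytes highest in water mouse 2 (1.08 and -0.20; 0.863).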

How the results depend on the processing

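Apool stayed lower in every refit. Of its 5 measured partners, 3 were lower, with 1 to 4 lower when single mice were left out, and the count at an unadjusted p under 0.05 was 0, with 0 to 1 over those refits and 1 with trend and robust fitting. Their median ran from -0.22 to 0.036 when single mice were left out, and was -0.040 after a further quantile normalization. Leaving out single mice moved Immt from -0.29 to 0.018, Samm50 from -0.22 to 0.036 and Opa1 from -0.083 to 0.17, past 0. With water mouse 1 left out Opa1 was -0.020, and with voglibose mouse 1 or 2 left out -0.023. The count over all probe sets at an unadjusted p under 0.05 ran from 969 (without voglibose mouse 1) to 1906, and was 988 once dim probe sets were dropped, so that fewer were tested. For the 8 lists together the count of lower genes by that rule ran from 13 (without voglibose mouse 1; 14 without water mouse 4) to 28, and was 10 without voglibose mouse 2 and water mouse 4 together, an alternative chosen after seeing the data. Without the 2 mice farthest from the median of Chchd6, its r with Opa1 was -0.119. The r of Apool with Immt passed over the 5 pairs with Apool but not over all 15 pairs (adjusted permutation p = 0.0347 and 0.052). Its rho did not pass even unadjusted (permutation p = 0.111). Mice of the same number did not pair: their deviations correlated from -0.324 to 0.015, and no voglibose mouse correlated best with the water mouse of its number. With the number as a replicate block, 3 partners were lower and 0 had an unadjusted p under 0.05, and over all probe sets 1529 did. In no refit did a probe set pass at an adjusted p of 0.05. The 24 list genes named by p kept their sign in all 336 refits, though not their size. Since they were picked by p in these same mice, that was largely fixed in advance and is no support. Causes were not tested.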
